A study of Mus musculus with 38 samples.

Results

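SATB1 binding was mapped around 7 genes of regulatory T (Treg) cells, Foxp3, Il2ra, Ctla4, Tnfrsf18, Il7r, Ikzf2 and Ikzf4, out of 22367 protein-coding genes. The genes were a listed set, and every peak that overlapped a gene body or the 100 kb on either side of it was taken from 11 peak lists. These windows spanned 1691 kb in total and held 510 of the 698638 peaks of the lists. The lists came from wild-type C57BL/6 mice. SATB1 was mapped with 2 replicates each by urea ChIP-seq in thymocytes, in brain cortex, where the protocol names neurons as the cells that make SATB1, and in epidermal keratinocytes of the skin, and by standard ChIP-seq in thymocytes, and CTCF was mapped by urea ChIP-seq with 1 list each in thymocytes and skin. The remaining list was the map of base unpairing regions (BURs), made in vitro with recombinant SATB1 on purified mouse genomic DNA.

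In urea ChIP-seq, crosslinked chromatin is purified through a urea gradient and then fragmented, whereas standard ChIP-seq takes the soluble part of sonicated nuclei. The thymocytes were labelled as 13 days old, but the titles of the CTCF sample and of standard replicate 1 gave 6 weeks. For the cortex the labels gave 5 weeks for replicate 1 and 6 weeks for replicate 2 and the protocol 13 days. For skin the labels gave 13 days and the protocol 5 days. The study's methods give a range for the cortex that starts at the 6 weeks of replicate 2, and for skin the day of birth or close to it. The urea thymocyte replicates differed in the volume of antibody, with 4 µl for replicate 1 and 2 µl for replicate 2, as numbered in the sample titles. The standard replicates differed in antibody, a commercial monoclonal for replicate 1 and the rabbit antiserum of the urea samples for replicate 2. They also differed in sonication, 15 s for replicate 1 and 150 s for replicate 2, and in the 6 weeks of the title of replicate 1. These differences cannot be told apart. The titles of cortex replicates 1 and 2 gave 10 and 12 cycles, and those of skin SATB1 replicates 1 and 2 gave 55 s and 60 s. The thymocytes were whole thymus cells and not sorted Treg cells, and the peak lists hold no expression values by which the labelled cell types could be checked. The study's reporting checklist calls its replicates biological, with different animals as the source, but the labels do not tie any library to an animal, so the spread between the 2 replicates of a group could not be assigned to animals.

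Treg cells are CD4+ T cells that restrain immune responses, and many of them arise in the thymus. Foxp3 encodes the transcription factor that defines the lineage. Il2ra encodes CD25, the alpha chain of the high-affinity receptor for interleukin-2, on which Treg cells depend. Ctla4 encodes an inhibitory receptor that competes for costimulatory ligands, and Tnfrsf18 encodes GITR, a costimulatory member of the tumour necrosis factor receptor family. Ikzf2 and Ikzf4 encode Helios and Eos, zinc finger transcription factors of the Ikaros family. Il7r encodes the alpha chain of the receptor for interleukin-7, which supports conventional T cells and thymocytes and is low on most Treg cells. SATB1 is a nuclear protein that is abundant in thymocytes and is needed for the development of Treg cells. It binds BURs, AT-rich stretches in which the G bases lie on only 1 strand over some distance and which unpair readily under strain. CTCF is the insulator protein found at many loop anchors.

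The sequences at the urea SATB1 peaks are shown first, since they make visible what the peaks in the 7 windows had in common. Each is 201 bases around the summit in thymocyte replicate 1, on the plus strand of NCBIM37 (mm9), and the capitals mark its longest stretch without G. The sites are those present in both thymocyte replicates that lay nearest the gene start, and those present in all 6 urea lists (for Il7r the latter alone).
Foxp3 site, chrX:7138904-7139104: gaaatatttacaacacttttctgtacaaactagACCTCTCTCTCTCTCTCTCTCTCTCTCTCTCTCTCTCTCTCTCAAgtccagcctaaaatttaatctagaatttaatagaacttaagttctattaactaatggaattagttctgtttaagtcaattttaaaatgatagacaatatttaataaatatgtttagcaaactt
Il2ra site, chr2:11690503-11690703: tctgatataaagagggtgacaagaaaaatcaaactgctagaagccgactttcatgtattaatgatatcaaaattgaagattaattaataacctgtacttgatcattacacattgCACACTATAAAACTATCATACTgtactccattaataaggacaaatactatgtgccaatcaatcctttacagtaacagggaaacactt
Ctla4 site, chr1:60935131-60935331: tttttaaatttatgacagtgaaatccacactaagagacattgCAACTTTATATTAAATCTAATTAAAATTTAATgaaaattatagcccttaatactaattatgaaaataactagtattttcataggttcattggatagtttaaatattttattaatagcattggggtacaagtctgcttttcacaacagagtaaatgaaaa
Ikzf4 site in all 6 lists, chr10:128037069-128037269: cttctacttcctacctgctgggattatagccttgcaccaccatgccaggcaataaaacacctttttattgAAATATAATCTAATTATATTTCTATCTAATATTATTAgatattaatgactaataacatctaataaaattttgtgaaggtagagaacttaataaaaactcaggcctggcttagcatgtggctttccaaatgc
Il7r site in all 6 lists, chr15:9356282-9356482: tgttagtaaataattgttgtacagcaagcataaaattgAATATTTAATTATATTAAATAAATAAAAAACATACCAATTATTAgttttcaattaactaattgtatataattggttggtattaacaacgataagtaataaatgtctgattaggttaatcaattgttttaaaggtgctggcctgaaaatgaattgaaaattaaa
Ikzf2 site in all 6 lists, chr1:69673296-69673496: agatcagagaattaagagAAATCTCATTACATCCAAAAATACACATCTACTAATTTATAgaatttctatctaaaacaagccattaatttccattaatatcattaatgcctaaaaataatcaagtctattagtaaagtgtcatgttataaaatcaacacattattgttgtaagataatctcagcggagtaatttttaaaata
Ikzf2 site nearest the start, chr1:69723985-69724185: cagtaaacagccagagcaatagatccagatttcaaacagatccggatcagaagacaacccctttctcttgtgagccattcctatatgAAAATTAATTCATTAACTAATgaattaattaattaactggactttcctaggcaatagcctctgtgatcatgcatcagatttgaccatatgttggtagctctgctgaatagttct
The Foxp3 site is a run of 20 CT units inside a 45-base stretch without G. Such a run of at least 10 CT units, on either strand, was held by 0.145% of the peaks of thymocyte replicate 1 and 0.292% of the BURs. It was more frequent in the other assays, with 0.790% and 0.863% of the standard SATB1 peaks in replicates 1 and 2. For CTCF it was 0.406% in thymocytes and 0.420% in skin. The Ctla4, Ikzf4, Il7r and Ikzf2 sites that follow are instead irregular AT-rich sequences, with 32, 37, 44 and 41 bases without G, and that of Il2ra has 22. The Ikzf2 site nearest the start was the least AT-rich of those printed, with 62.7% A and T and a stretch of 21 bases.

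The peaks of the other assays printed next have a lower share of A and T than each of these. The capitals in the CTCF peaks mark a match to CAGNNGGC or TAGNNGGC, a part of the CTCF binding motif searched on both strands, and those in the standard SATB1 peak mark its longest stretch without C. The Tnfrsf18 sequence ends at the base before the gene start.
Il2ra CTCF peak, chr2:11585682-11585882: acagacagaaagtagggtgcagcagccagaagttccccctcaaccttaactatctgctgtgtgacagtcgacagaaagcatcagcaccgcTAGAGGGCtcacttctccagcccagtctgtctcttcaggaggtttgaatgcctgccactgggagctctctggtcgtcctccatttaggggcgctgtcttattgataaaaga
Tnfrsf18 CTCF peak, chr4:155400086-155400272: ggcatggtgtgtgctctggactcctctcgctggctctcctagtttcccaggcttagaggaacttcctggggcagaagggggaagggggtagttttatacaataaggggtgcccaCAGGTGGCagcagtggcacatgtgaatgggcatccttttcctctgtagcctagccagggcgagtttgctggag
Ctla4 standard SATB1 peak, chr1:60939792-60939992: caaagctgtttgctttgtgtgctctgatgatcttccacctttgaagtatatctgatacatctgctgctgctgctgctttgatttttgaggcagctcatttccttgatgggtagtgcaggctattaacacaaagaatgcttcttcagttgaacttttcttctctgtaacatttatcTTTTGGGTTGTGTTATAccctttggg
The Il2ra peak lies in an intron of the gene and the Tnfrsf18 peak at its start site. Their longest stretches are 23 bases without G for Il2ra and 26 without C for Tnfrsf18. Both are longer than the 22 and 21 bases at the urea sites of Il2ra and of Ikzf2 nearest the start. The Ctla4 standard peak has 59.7% A and T, more than 96.9% of the peaks of its list, but its longest stretch without C is only 17 bases.

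The median share of A and T in the windows was 71.1% for urea SATB1 peaks of thymocyte replicate 1 and 72.6% for those of replicate 2, near the 70.6% of either whole list and the 73.1% of all BURs. For standard SATB1 peaks it was 51.7% in replicate 1 and 51.2% in replicate 2, above the 47.3% and 47.8% of the whole lists, and for thymocyte CTCF peaks 51.2%, against 50.2% of the whole list. The lowest value of any urea peak of thymocyte replicate 1, 62.7%, lay above the median of every standard and CTCF list, and so did the lowest of replicate 2, 56.2%, although single standard peaks reached 64.7% in replicate 1 and 70.1% in replicate 2. The motif occurred in 17 of 31 CTCF peaks of thymocytes in the windows (54.8%, against 58.4% of the whole list), in 35 of 109 and 21 of 71 standard SATB1 peaks (32.1% and 29.6%, against 33.6% and 29.4%), and in 0 of 17 and 0 of 20 urea SATB1 peaks (against 6.16% and 6.07%). A match is a description of the letters and not a bound site.

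**Figure D1:**
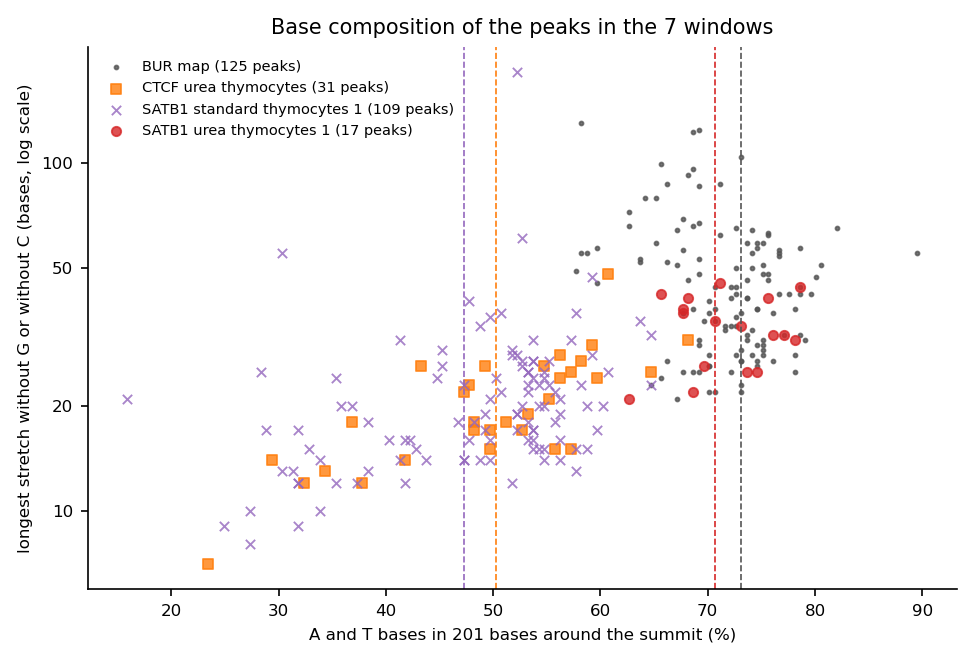
Base composition of the peaks in the 7 windows. Each mark is a peak, with the percentage of A and T in 201 bases around its summit on the horizontal axis and the length in bases of its longest stretch without G or without C on the vertical log axis. Dashed lines are the medians of the whole lists in the same colours. The 17 urea SATB1 peaks of thymocyte replicate 1 lie between 62.7% and 78.6% among the BURs, to the right of most of the 109 standard peaks and 31 CTCF peaks.

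The total number of urea SATB1 peaks in the 7 windows was 17 and 20 in the thymocyte replicates, 50 and 43 in brain and 5 and 6 in skin. Standard ChIP-seq gave 109 and 71 peaks in thymocytes, and CTCF gave 31 in thymocytes and 33 in skin. The BUR map held 125 BURs there. Per Mb, the windows held 0.594 and 0.810 times as many urea thymocyte peaks as chromosomes 1 to 19, X and Y as a whole, and 0.845 times as many BURs. For standard SATB1 the ratio was 3.58 in replicate 1 and 4.15 in replicate 2, and for CTCF 2.41 in thymocytes and 1.66 in skin. Compared with the whole genome, the Treg genes therefore lay in stretches with many standard SATB1 and CTCF peaks. Per Mb, these held somewhat fewer urea SATB1 peaks and BURs than the whole genome. Beside the windows of all protein-coding genes, not scaled by length, they were not lower throughout. The median member had 18 BURs against 11, and 6 against 4 urea peaks in either brain replicate. In the thymocyte replicates the medians were 1 and 3 against 2 and 2, and in skin 1 and 0 against 1 and 0. For standard SATB1 the medians were 18 and 12 against 8 and 4. Those of CTCF were close, with 5 against 4 in thymocytes and 5 against 5 in skin. The windows held between 0 other protein-coding genes, for Ikzf2, and 10, for Ikzf4, and the part of these neighbours in the ratios was not tested.

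Beside all protein-coding genes, the members were not set apart by having a peak. BURs lay in the windows of all 7 members, and in those of 99.7% of all genes. A urea SATB1 peak was present in both thymocyte replicates in the windows of 6 members, all but Tnfrsf18, against 74.9% of all genes. For brain it was 7 of 7 against 87.1%, and for skin 3 of 7, Il7r, Ikzf2 and Ikzf4, against 43.3%. A standard SATB1 peak was present in both replicates in 7 of 7 windows against 78.5%. CTCF peaks were present in 7 of 7 windows in thymocytes against 81.3% of all genes, and in 7 of 7 in skin against 90.8%. With 7 genes these counts are close to the background, and they are not a result about Treg genes.

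The gene bodies alone held few urea peaks. Ikzf2, the longest of the genes, was the only member with a urea SATB1 peak in its body in both thymocyte replicates (20.2% of all genes) and in both skin replicates (9.41%). In brain the bodies of Il2ra, Ctla4 and Ikzf2 held a peak in both replicates (30.5%). BURs lay in the bodies of Il2ra, Ctla4, Il7r and Ikzf2 (46.1%). Standard SATB1 peaks of both replicates lay in the bodies of 5 members, all but Foxp3 and Tnfrsf18 (45.5%), thymocyte CTCF peaks in those of Il2ra and Tnfrsf18 (30.5%), and skin CTCF peaks in that of Il2ra (39.1%). Most of the urea SATB1 peaks of these loci were thus in the flanks, which are also the longer part of every window. The bodies spanned from 2.73 kb for Tnfrsf18 to 155 kb for Ikzf2, beside 100 kb on either side. A preference for the flanks was not tested. In thymocytes 2 of 17 and 4 of 20 peaks touched a gene body, in brain 15 of 50 and 11 of 43, and in skin 1 of 5 and 1 of 6.

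**Figure D2:**
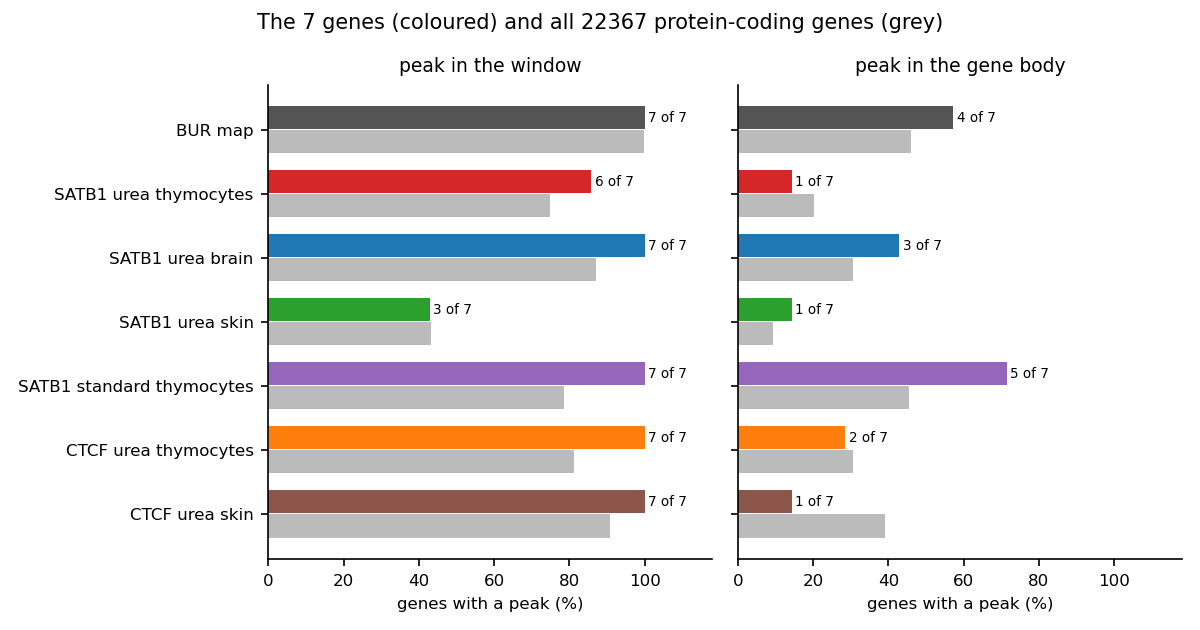
Share of genes with a peak in the window (left) and in the gene body (right). Coloured bars are the percentage of the 7 Treg genes, with the count beside them, and grey bars the percentage of all 22367 protein-coding genes; where a group has 2 replicates, a peak had to be in both. Urea SATB1 peaks of thymocytes lay in 6 of 7 windows and 1 of 7 gene bodies, near the grey bars.

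**Figure D3:**
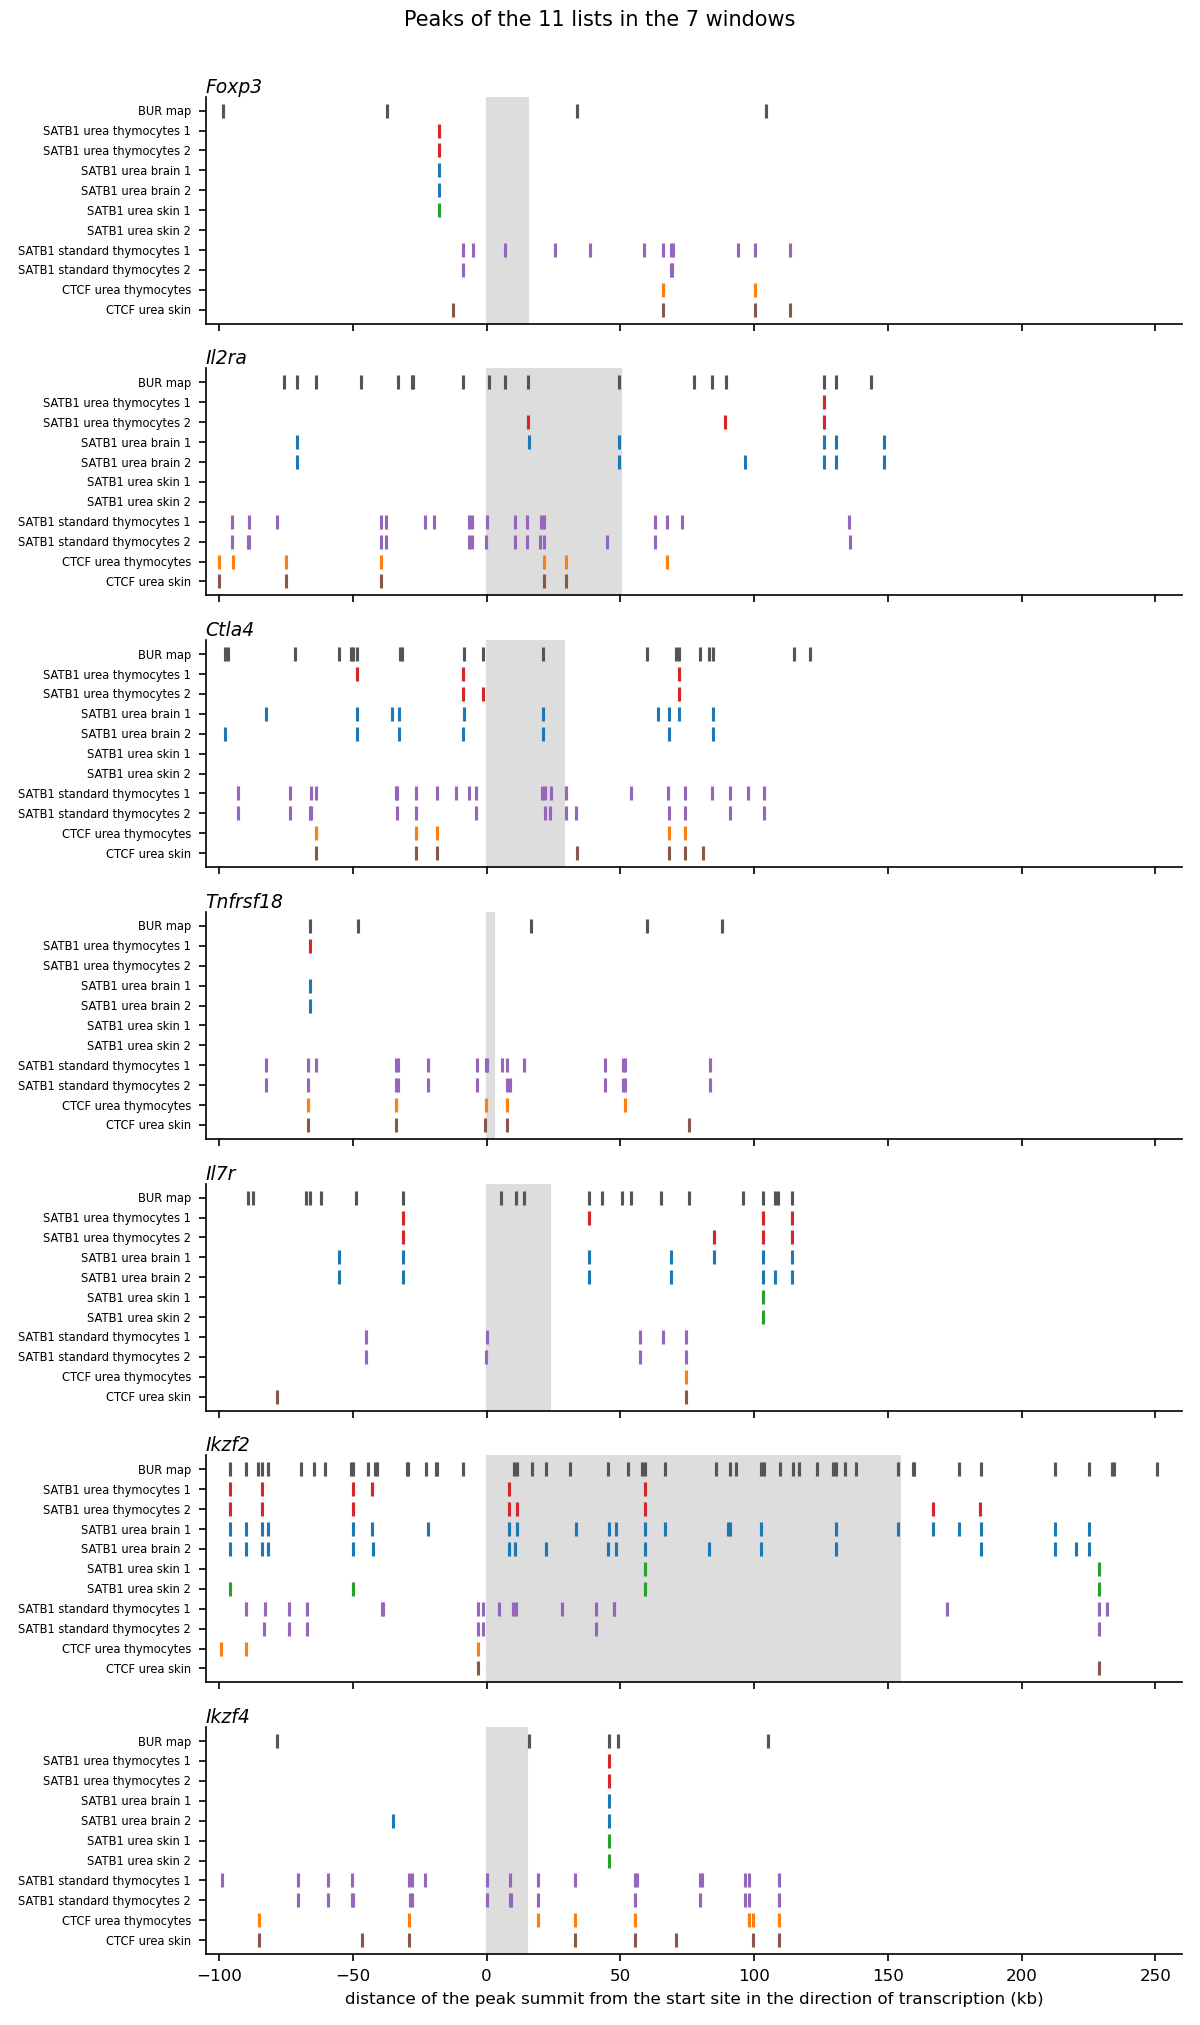
Summits of all peaks in the 7 windows. The horizontal axis is the distance from the start of the gene in kb in the direction of transcription, the grey band is the gene body, and each row of ticks is 1 peak list. Urea SATB1 ticks of the 3 tissues stack at a few positions, while the standard SATB1 ticks of thymocytes stand elsewhere.

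Foxp3 (ENSMUSG00000039521.5, chrX:7156802-7172369, plus strand) had a single urea SATB1 site. It lay at chrX:7138794-7139315, 17.8 kb upstream of the start and in an intron of the neighbouring Ppp1r3f. Its fold enrichment, which is the height of a summit divided by the local background that the peak caller estimates for that sample, was 10.4 and 8.06 in the thymocyte replicates, 13.8 and 13.0 in brain and 5.24 in skin replicate 1, and it was not in the list of skin replicate 2. These ratios are not scaled between samples, so the rank of a peak in its own list was used beside them. The Foxp3 site was above 69.4% and 52.8% of the thymocyte peaks of its list, above 85.1% and 82.7% of the brain peaks and above 18.6% of the skin peaks. It is the CT repeat printed first, and it did not overlap a BUR. The nearest of the 4 BURs of the window was 18.9 kb away, and none of the 4 was bound in any urea list. Standard SATB1 had 12 peaks in replicate 1 and 3 in replicate 2, of which 3 were in both, none in the gene body. The highest in replicate 1, with a fold enrichment of 15.1, lay at the start of Syp, a synaptic vesicle gene, and had no counterpart in replicate 2. The 2 thymocyte CTCF peaks lay 65.9 and 100.3 kb downstream of the start, and both were also in skin.

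Il2ra (ENSMUSG00000026770.4, chr2:11564419-11614818, plus strand) had 1 urea SATB1 peak in thymocyte replicate 1 and 3 in replicate 2, 6 in either brain replicate and 0 in skin. The site shared by the thymocyte replicates was 126.2 kb downstream of the start, in an intron of Fbxo18. Its fold enrichment was 11.1 and 6.69 in thymocytes and 13.0 and 11.7 in brain, and it overlapped a BUR. The gene itself holds very strong in vitro binding sites. A BUR in an intron 15.7 kb from the start, at chr2:11579838-11580357, had a fold enrichment of 22.3, above 99.8% of all BURs, and another 0.865 kb from the start had 19.4, above 99.3%. In cells the first of them was a peak only in thymocyte replicate 2, at 6.76, and brain replicate 1, at 5.56, and the second in no urea list. Of the 18 BURs of the window, 1 and 3 were bound in the thymocyte replicates and 5 and 4 in brain. Standard SATB1 gave 18 and 15 peaks, with 13 in both replicates, 5 of them in the gene body. A standard peak covered the start site in both replicates, at 5.75 and 4.84, and the highest, at 10.7 and 8.61, lay 21.4 kb into the gene on the CTCF peak whose sequence is printed above. This CTCF peak had a fold enrichment of 11.6 in thymocytes and 9.57 in skin.

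Il7r (ENSMUSG00000003882.4, chr15:9435916-9459631, minus strand) had 4 urea SATB1 peaks in either thymocyte replicate, 7 in either brain replicate and 1 in either skin replicate, with no spread between replicates. Its strongest site, 103.2 kb downstream of the start at chr15:9356132-9356693, was in all 6 lists. The fold enrichment there was 21.0 and 18.7 in thymocytes, 22.2 and 22.0 in brain and 12.5 and 9.01 in skin, and the site overlapped a BUR of 14.5. At both other sites shared by the thymocyte replicates the brain values were higher. Upstream of the start by 31.2 kb, thymocytes had 3.81 and 5.72 and brain 20.4 and 15.8, which put the site above 0.981% and 26.3% of the thymocyte peaks and above 97.1% and 90.1% of the brain peaks. At 114.1 kb downstream thymocytes had 6.61 and 5.72 and brain 17.6 and 16.0. The thymocyte and brain values did not overlap at either site, and with 2 replicates in a group no test can pass the threshold. Il7r was the member with the fewest standard SATB1 peaks beside Foxp3, 5 and 4, and all 4 of replicate 2 were shared. A standard peak lay at its start site, at 6.53 and 6.77. The window had a single thymocyte CTCF peak, 74.5 kb downstream in an intron of Capsl, and it was also in skin.

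Ctla4 (ENSMUSG00000026011.6, chr1:60943844-60972676, plus strand) had 3 urea SATB1 peaks in either thymocyte replicate, 10 and 7 in brain and 0 in skin. The annotated start of the gene belongs to a processed transcript, and the protein-coding transcripts begin 22.0 kb farther downstream, at position 60965869. Of the sites in both thymocyte replicates, the one nearest the gene start, 8.61 kb upstream at chr1:60934980-60935710, was also the strongest of the window. It had a fold enrichment of 13.6 and 9.36 in thymocytes and 16.2 and 16.9 in brain, and the BUR under it had 16.8, the highest BUR of the window and above 97.7% of the map. The other site in both thymocyte replicates, 71.9 kb downstream, was weak, with 5.10 and 4.42, and was in brain replicate 1 alone among the brain lists, at 5.18. A site in an intron, 21.0 kb from the start and on a BUR of 13.7, was in both brain replicates, at 5.37 and 6.85, and in neither thymocyte replicate. Standard SATB1 gave 22 and 15 peaks, and 4.84% and 4.48% of protein-coding genes had at least as many. Among them, a peak of 5.62 and 4.53 lay at the start of the protein-coding transcripts, and a peak of 12.1 and 8.62 lay 3.95 kb upstream of the gene start. The highest, 19.6 and 13.4, lay 0.054 kb and 0.060 kb from the start of Icos, the gene of another costimulatory receptor of T cells and the only other protein-coding gene of the window. The windows of Ctla4 and Icos overlap, so that they share peaks.

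Tnfrsf18 (ENSMUSG00000041954.11, chr4:155400273-155403004, plus strand), the shortest of the genes, was the only member without a urea SATB1 peak in both thymocyte replicates. Its single urea site, 66.1 kb upstream, had a fold enrichment of 21.2 and 19.4 in brain, above 97.7% and 96.0% of the brain peaks, and 8.27 in thymocyte replicate 1. It was missing from thymocyte replicate 2 and from skin, and it overlapped a BUR of 17.0. Standard SATB1 peaks of 5.05 and 4.88 and a skin CTCF peak of 8.58 touched only the edge of the merged region. The region began at position 155333754, and these peaks ended at 155333770, 155333822 and 155333780. None of them reached the urea peak of thymocyte replicate 1, which began at 155333933. The window held 5 BURs and 16 and 12 standard peaks, 11 of them in both replicates. At the start site a standard peak of 4.39 was present in replicate 1 only, with the thymocyte CTCF peak of 6.10 printed above. The highest CTCF peak of thymocytes, 13.9, lay 7.57 kb downstream. The window also holds Tnfrsf4, the gene of the costimulatory receptor OX40, and its peak counts were those of Tnfrsf18 in all 11 lists, as the windows overlap.

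Ikzf2 (ENSMUSG00000025997.7, chr1:69577788-69732534, minus strand) had the most urea SATB1 peaks, 6 and 8 in thymocytes, 24 and 19 in brain and 2 and 4 in skin. Its window is also the longest, 355 kb, and held 52 BURs, and 2.15% of genes had at least as many. Of the 28 separate urea SATB1 sites of the window, 5 were in both thymocyte replicates. The strongest lay in an intron 59.1 kb from the start, at chr1:69673111-69673786, and was in all 6 lists, with 24.5 and 20.2 in thymocytes, 22.0 and 23.0 in brain and 5.45 and 5.53 in skin. A second strong site 95.7 kb upstream had 18.3 and 17.4 in thymocytes, 19.9 and 21.3 in brain and 4.50 in skin replicate 2. The sites 50.0 and 83.9 kb upstream were weaker, the first with 10.9 and 11.4 and the second with 10.4 and 5.40 in thymocytes. The site nearest the start, 8.42 kb into the gene, had 6.86 and 8.84 in thymocytes against 5.76 and 5.79 in brain, and was the only one of the 5 that overlapped no BUR. Brain alone had a peak in both replicates at 4 further sites in introns of Ikzf2, between 45.5 and 130.7 kb from the start, with fold enrichments between 4.22 and 9.59. Standard SATB1 gave 18 peaks in replicate 1 and 7 in replicate 2. A standard peak 1.42 kb upstream of the start was in both, at 6.15 and 4.52, and a CTCF peak 3.25 kb upstream was in both tissues.

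Ikzf4 (ENSMUSG00000002578.8, chr10:128067899-128083047, minus strand) had a single urea SATB1 site in thymocytes and skin, and in these cells it had the highest fold enrichment of all urea sites in the 7 windows. It lay 45.9 kb downstream of the start, at chr10:128036862-128037542, between genes, with the start of Erbb3, a receptor tyrosine kinase gene, 10.5 kb away. Its fold enrichment was 27.7 and 29.8 in thymocytes, 21.1 and 20.9 in brain and 22.7 and 25.0 in skin, which put it above 93.9% or more of the peaks in each of the 6 lists. It overlapped the highest BUR of the window, of 14.7, above 95.3% of the map. The only other urea site of the window was in brain replicate 2 alone. Standard SATB1 gave 18 and 15 peaks, with 13 in both replicates. The highest, 109.5 kb downstream with 24.1 and 15.6, was also a CTCF peak in both tissues, and a peak of 5.14 and 6.56 lay at the start of Ikzf4. Thymocytes and skin had 8 CTCF peaks each, more than in any other of the 7 windows, and 6 of them were shared.

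**Figure D4:**
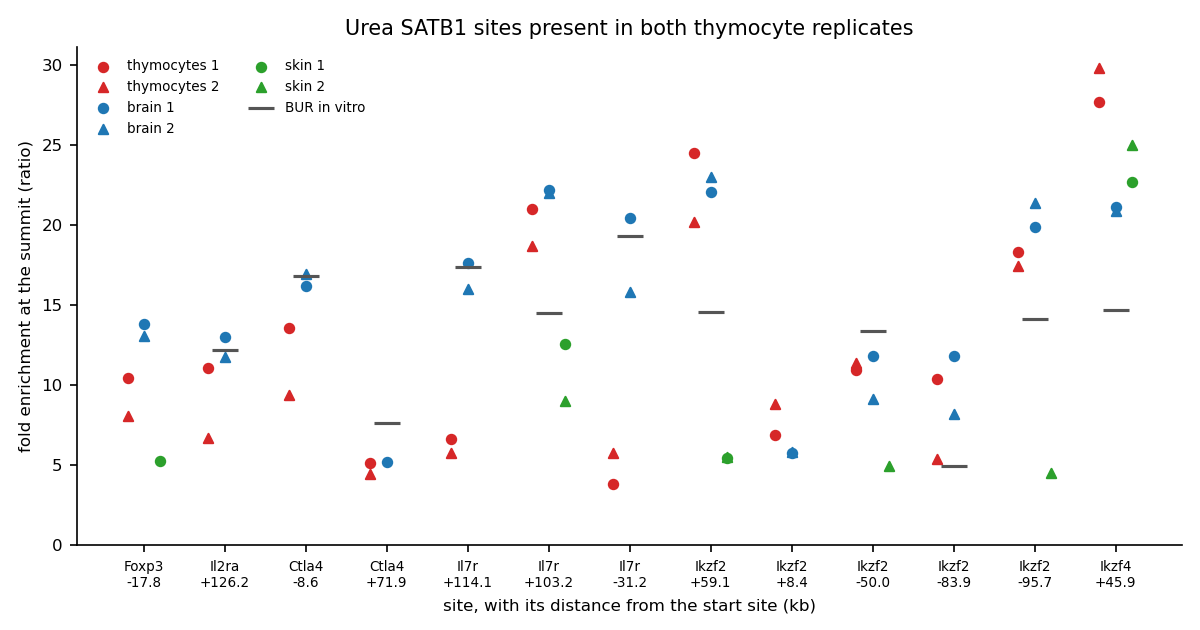
Fold enrichment at the 13 urea SATB1 sites present in both thymocyte replicates. Each column is a site, named by its gene and its distance from the start in kb; circles are replicate 1 and triangles replicate 2 of each tissue, the grey dash is the BUR under the site, and a missing mark means no peak in that list. The Ikzf4 site and the highest Il7r and Ikzf2 sites have marks of all 6 lists, and the other Il7r sites stand higher in brain than in thymocytes.

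Over the 7 genes, the urea peaks of all tissues merged into 60 separate SATB1 sites. A tissue was counted here from a peak in either replicate. On this count 35 sites were found in brain only, 16 in brain and thymocytes, 6 in all 3 tissues, 2 in thymocytes only and 1 in skin only. The 2 in thymocytes only were in replicate 2 alone. Of the 60 sites, 36 were in both brain replicates, 13 in both thymocyte replicates and 4 in both skin replicates. The share of brain-only sites over the whole lists was not computed. All 13 sites of both thymocyte replicates were also sites in brain, as were 97.4% of such peaks over the whole list of either thymocyte replicate. The 3 sites in all 6 lists were those of Il7r, Ikzf2 and Ikzf4 described above. All but 1 of the skin sites were among the thymocyte sites, and over the whole lists 85.1% and 85.8% of the skin peaks overlapped a thymocyte peak of either replicate. The whole lists have the same order in size, with 11210 and 10846 peaks in skin, 45049 and 38882 in thymocytes and 117963 and 109154 in brain.

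Per length the members fell into a different order for either assay. In thymocytes the mean number of urea SATB1 peaks per 100 kb of window was 1.97 ± 0.399 (SD, n = 2) for Ikzf2, 1.79 ± 0 for Il7r, 1.31 ± 0 for Ctla4, 0.799 ± 0.565 for Il2ra, and under 0.5 for Ikzf4, Foxp3 and Tnfrsf18. Ikzf2 and Il7r were within the spread of the replicates of each other, and so were Ctla4 and Il2ra, and the last 3 genes. For standard SATB1 the highest was Ctla4 with 8.08 ± 2.16, followed by Ikzf4 with 7.67 ± 0.986, Tnfrsf18 with 6.91 ± 1.40 and Il2ra with 6.59 ± 0.847, and neighbours in this order were within the spread of their replicates. Ikzf2 with 3.52 ± 2.19, Foxp3 with 3.48 ± 2.95 and Il7r with 2.01 ± 0.316 were lower. The genes with the most urea peaks per length, Ikzf2 and Il7r, were thus among those with the fewest standard peaks. This order is a description of 7 genes.

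The increase of urea SATB1 peaks in the order skin, thymocytes, brain was described for each gene with an exact one-sided Jonckheere-Terpstra test. It ran over the 90 arrangements of the 6 lists. This order is that of the list sizes and was known beforehand from these data. The p-values are therefore not an independent test of it. The totals over the 7 windows were 5.5 ± 0.707 (SD, n = 2) in skin, 18.5 ± 2.12 in thymocytes and 46.5 ± 4.95 in brain, which are given without a test since the genes were chosen. Il2ra had a mean of 0 peaks in skin, 2.0 ± 1.41 in thymocytes and 6.0 ± 0 in brain. Ctla4 had 0, 3.0 ± 0 and 8.5 ± 2.12, Il7r had 1.0 ± 0, 4.0 ± 0 and 7.0 ± 0, and Ikzf2 had 3.0 ± 1.41, 7.0 ± 1.41 and 21.5 ± 3.54. For these 4 genes the 3 tissues did not overlap, and the exact p was 0.0111, the smallest that the arrangements allow, or 0.0235 with Benjamini-Hochberg adjustment over all 22367 genes. The same call was made for 51.2% of all protein-coding genes, so 4 of 7 is near the background. Tnfrsf18 had an exact p of 0.1 (adjusted 0.126), and Foxp3 and Ikzf4 had 0.333 each (adjusted 0.377). These 3 genes had between 0 and 2 urea peaks in every list.

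The order of the tissues was that of the list sizes, and it was not seen in lists of equal size. When every urea SATB1 list was cut to its 10846 peaks of highest −log10 q, the windows held 5 and 4 peaks in thymocytes, 6 and 5 in brain and 5 and 6 in skin. No gene of the genome passed the exact test after adjustment then, with a smallest adjusted p of 0.933, and 435 genes had an unadjusted p under 0.05. Ikzf2 had 2 peaks in each thymocyte and brain list and 2 and 4 in skin, Il7r had 1 in each but for 2 in brain replicate 1, and Ikzf4 had 1 in every list. The Tnfrsf18 site remained in both brain lists alone, and the Foxp3 site in skin replicate 1 alone. Cut to equal size, the Treg windows thus held similar numbers of peaks in the 3 tissues, and more binding in brain and more peaks passing the threshold there cannot be told apart from these lists.

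**Figure D5:**
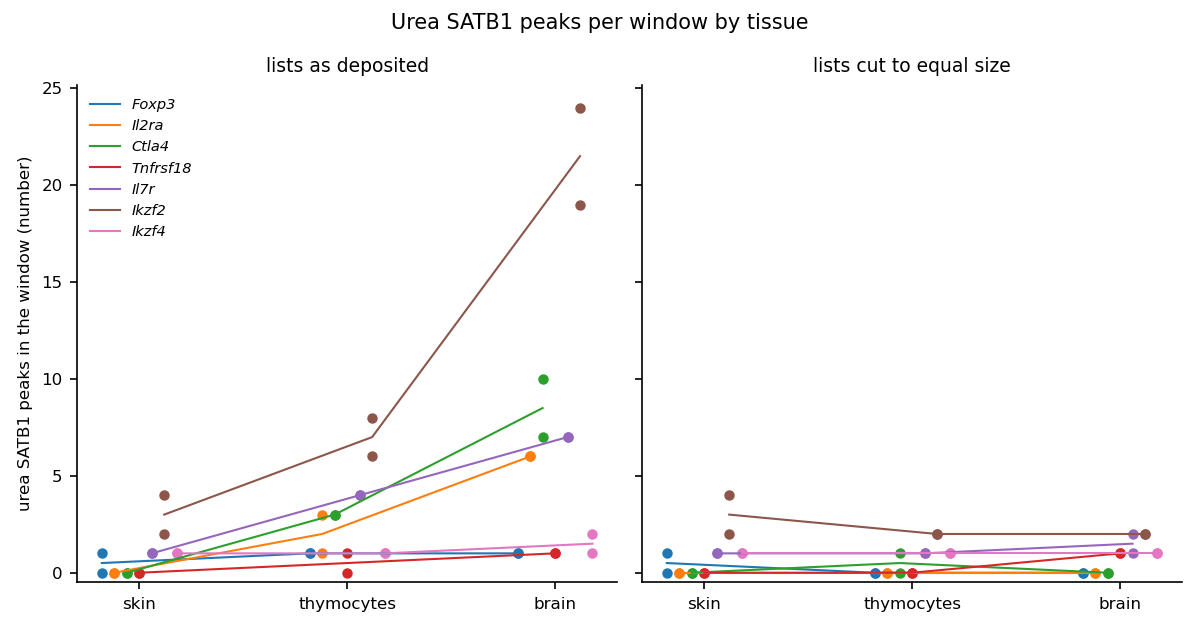
Urea SATB1 peaks per window in skin, thymocytes and brain. Points are single lists, 2 per tissue, and lines join the means of each gene; the left panel uses the lists as deposited and the right panel those cut to their 10846 highest peaks by −log10 q. On the left Ikzf2 goes from 2 and 4 in skin to 24 and 19 in brain, and on the right no gene has more than 4 peaks.

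The share of peaks over a BUR is given beside that of the whole lists. In the windows 82.4% and 80.0% of the thymocyte urea peaks overlapped a BUR (81.2 ± 1.66%, SD, n = 2; whole lists 75.8% and 77.6%). In brain the share was 70.0% and 72.1% (whole lists 73.0% and 72.8%), and in skin 3 of 5 and 5 of 6 peaks (whole lists 78.4% and 79.4%). Of the 125 BURs in the windows, 11.2% and 12.8% were bound in thymocytes, 28.0% and 25.6% in brain and 2.4% and 4.0% in skin. Over the whole map the shares bound were 14.3% and 12.6%, 36.2% and 33.4%, and 3.68% and 3.61%. In each list most BURs of the Treg loci were thus without a peak. Among the standard peaks 2 of 109 and 1 of 71 overlapped a BUR (1.83% and 1.41%, whole lists 3.78% and 5.20%). Taken by their replicate 1 coordinates, none of the 64 that were in both replicates did. The 1 such peak of replicate 2, in the Tnfrsf18 window, overlapped a peak of these 64.

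Urea and standard ChIP-seq of the same cell type gave peaks at different places. None of the 13 thymocyte sites overlapped a standard peak of either replicate, and over the whole list of urea replicate 1 the peaks also found in urea replicate 2 did so in 1.04% of cases for standard replicate 1 and 0.863% for standard replicate 2. The distance to the nearest one had a median of 8.77 kb for replicate 1 and 9.36 kb for replicate 2 of the standard lists, measured from the peaks of urea replicate 1, and ranged from 0.35 kb to 39.4 kb. Within 3 kb of a standard peak lay 4 of the 13 sites for replicate 1 and 2 for replicate 2, against 6.75% and 4.39% over the whole list. The standard peaks lay instead partly on CTCF. In the windows 22.9% and 23.9% of them overlapped a thymocyte CTCF peak (whole lists 22.2% and 18.0%), and so did 17 of the 64 shared ones.

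The mean number of peaks per list in thymocytes was 18.5 ± 2.12 for urea and 90.0 ± 26.9 for standard ChIP-seq over the 7 windows (SD, n = 2), a difference of −71.5, given without a test. Both standard lists held more peaks than both urea lists for 5 of 7 genes, Foxp3, Il2ra, Ctla4, Tnfrsf18 and Ikzf4, against 56.7% of all protein-coding genes. Il7r had 4.0 ± 0 urea peaks and 4.5 ± 0.707 standard peaks (exact two-sided permutation p = 1), and Ikzf2 had 7.0 ± 1.41 and 12.5 ± 7.78 (exact p = 0.667). For the other 5 genes the exact p was 0.333, the smallest that 2 against 2 lists allow, so none could pass the threshold of 0.05. With the thymocyte lists cut to equal size, 27147 peaks each, the totals were 12 and 10 for urea and 65 and 71 for standard ChIP-seq. A standard peak in both replicates within 1 kb of an annotated start site of a transcript was found for 4 members, Il2ra, Ctla4, Il7r and Ikzf4, against 40.9% of all genes. Ctla4 was counted through the start of its protein-coding transcripts, 22.0 kb into the gene, as its nearest standard peak in replicate 1 lay 3.95 kb from the gene start. No urea SATB1 peak of both thymocyte replicates lay within 1 kb of the gene start of a member, which is a narrower measure than any transcript start.

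Most CTCF peaks of these windows were shared by both tissues. Of the 31 thymocyte peaks 74.2% were also in skin (83.5% of the whole list), and of the 33 skin peaks 69.7% were also in thymocytes (53.5% of the whole list). With 1 list per tissue no test was made. The peaks of Foxp3, Ctla4 and Il7r in thymocytes were all found in skin, while 1 of the 3 of Ikzf2 was.

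Among genes whose windows do not overlap the member's, the gene with the most similar counts over the 11 lists, by the Euclidean distance of the square roots of the counts, was Prkcq for Ctla4 (0.882), Il17ra for Il2ra (0.921), Tln1 for Ikzf4 (0.331), Myo6 for Ikzf2 (1.24), Gm17304 for Il7r (0.737), Zfp524 for Tnfrsf18 (0.564) and Gal for Foxp3 (0.986). Prkcq, which encodes protein kinase C theta of T cells, had 21 and 13 standard and 4 and 3 urea thymocyte peaks, and Myo6, a myosin gene, had 11 and 9 urea thymocyte and 27 and 21 brain peaks. The likeness is one of peak counts alone.

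Another 43 genes of Treg biology, among them the interleukin-2 receptor and signalling genes, costimulatory receptors, TGF-beta receptors and Treg transcription factors, were counted in the same way. A urea SATB1 peak was present in both thymocyte replicates in 32 of their windows (74.4%), in both brain replicates in 38 (88.4%) and in both skin replicates in 21 (48.8%), close to the shares of all genes. A standard peak of both replicates was present in all 43 windows and in 32 gene bodies (74.4%), above the shares of all protein-coding genes given above. The median count of standard peaks was 17 and 10, between the 18 and 12 of the members and the 8 and 4 of all genes. Bach2, a repressor needed for Treg homeostasis, had 7 and 5 urea thymocyte and 25 and 17 standard peaks, and Satb1 itself, Ikzf3 and Il1rl1 were the other genes with a skin urea peak in the gene body in both replicates. Lag3, Ccr4 and Ccr8, an inhibitory receptor and chemokine receptors of Treg cells, had no urea thymocyte peak in either replicate but between 14 and 25 standard peaks in replicate 1. Several of the 43 genes are neighbours of the members or of each other, so their windows are not independent.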

How the data were processed

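SATB1 and CTCF ChIP-seq and the BUR map were analysed as 11 peak lists of wild-type mice, of 38 samples. The knockout samples, inputs, Hi-C, 4C-seq and the second thymocyte CTCF sample were not analysed here. The authors mapped reads to mm9 with Bowtie2 2.3.1 and used MACS2 2.2.7 to call peaks sample by sample. The deposited lists give a display score of the peak caller, which was not used, and the fold enrichment, a ratio of the summit height over the local background. The −log10 p-value and −log10 q-value of each peak were computed by the authors' peak caller within its own list. No list holds counts, so the depth could not be read from the lists, and the precision is that of 2 replicates. For urea ChIP-seq the paper states that the totals of aligned reads were similar between cell types.

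The authors' peaks were kept as deposited, and no minimum was set. Genes came from GENCODE vM1 and sequence from NCBIM37, read with pysam 0.24.0. Numbers were computed with Python 3.11.15, numpy 2.4.6 and pandas 2.3.3, and plots drawn with matplotlib 3.10.9. A peak overlapped another from 1 bp. Windows were the gene body and 100 kb on either side, and all 22367 protein-coding genes on chromosomes 1 to 19, X and Y were treated alike. Neighbouring genes' windows can share peaks. Tests were exact permutations over lists, checked on simulated data, with a threshold of 0.05. The p-values of the genes were adjusted over all protein-coding genes in place of the members alone, and totals over the members were not tested, which departs from the planned design. The urea thymocyte replicates are numbered as in the sample titles, the reverse of the supplementary files. The sequence of 1 site found in skin alone is not reported here. The members, lists of other genes, the tested order of the tissues, the rule for named peaks and the motifs were chosen with earlier results of these data known. The rule took every urea SATB1 site of both thymocyte replicates, and the nearest and the highest standard and CTCF peaks and highest BUR of each window. All of these urea sites are described above, but not all of the standard and CTCF peaks and BURs of the rule. The sites in all 6 lists, the brain sites of Ikzf2 and Ctla4, the CT repeat and the genes named among the other 43 were picked after their values were seen. The alternatives were flanks of 50 and 200 kb, gene bodies alone, a −log10 q of at least 5, lists of equal size, peaks over BURs only, other overlap rules, removal of regions with a peak in all 11 lists, a replicate block and each replicate left out.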

Additional observations from a re-analysis of the deposited data

How the results depend on the processing

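The total of brain minus skin was 41.0 urea peaks, and it was 26.0 with flanks of 50 kb, 75.0 with 200 kb, 12.0 in gene bodies alone and 0.0 with lists of equal size. Under equal size Foxp3 (−0.5) and Ikzf2 (−1.0) turned the other way. The total of urea minus standard was −71.5, and it was −45.5 with 50 kb, −109.5 with 200 kb and −14.0 in gene bodies, while Il7r turned to 3.5 with 200 kb. The share of thymocyte urea peaks over a BUR was 75.6% with 50 kb and 77.8% with 200 kb. In gene bodies alone, the members with a peak of both replicates fell to 4 for BURs, 1 for urea thymocytes, 3 for brain and 1 for skin, and to 2 and 1 for CTCF in thymocytes and skin. The number of CTCF peaks in thymocytes was 17, 52 and 3 with 50 kb, 200 kb and gene bodies, and in skin 17, 63 and 2. The changes with the width of the window follow from its construction. Leaving out each replicate gave 37.5 to 44.5 for brain minus skin and −90.5 to −52.5 for urea minus standard.

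The ordered test called 4 members at 100 kb, 3 with flanks of 50 kb (Ctla4, Il7r, Ikzf2), 5 with 200 kb (Ikzf4 added), 3 with peaks over BURs alone (Il2ra, Ctla4, Ikzf2) and 0 in gene bodies or with lists of equal size, where 3350 and 435 genes of all had an unadjusted p under 0.05. The replicate numbers are shared by the tissues but do not stand for a shared animal or batch. With a replicate block the totals were 41.0 and −71.5 as before, the smallest adjusted p was 0.0562 and no gene passed, since the block leaves fewer arrangements. Leaving out any 1 replicate also left too few arrangements for a gene to pass, with smallest adjusted p from 0.0619 to 0.0683. Of the alternatives for the main values, 48 kept the value within the replicate spread, or counts within 1.5 times, and 21 did not.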
